A study of Mus musculus with 6 samples.

Results

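Interleukin receptors are assembled from a private chain, which recognises a given cytokine, and shared chains that several receptors use to signal. The 30 genes described here are the interleukin receptor chains among the 750 endogenous genes of a NanoString nCounter immune panel, which counts RNA molecules with barcoded probes. They were taken by name, as every panel gene named for an interleukin receptor, plus Il6st, and not by any measured value. The tumors came from BNL-MEA, a mouse liver cancer line of BALB/c origin, injected under the capsule of the left lobe of the liver in BALB/c males aged 6 to 7 weeks. In 3 samples the title gives the line transfected with a plasmid encoding PD-L1, which is a ligand of the inhibitory receptor PD-1, and in 3 samples the line with the empty plasmid. The treatment tag gives the same groups, but the free-text description of the empty plasmid samples also mentions clones that express PD-L1, a conflict in the labels that was not resolved.

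Both lines had been selected with G418 as stable clones, so the clone and the plasmid cannot be told apart. The tumors grew in mice whose own immune cells were present, and the RNA was of whole tumor tissue. Whether the tumors of a group came from separate mice is not stated in the labels, so the p-values describe the spread between these samples, which may be technical. Recovered counts totalled 1051274 to 1920476 per sample, against 72 to 109 over the 8 negative control probes. Cd274, the gene for PD-L1, ran from 5.36 to 6.17 on the log2 scale in the PD-L1-labelled tumors and from 5.32 to 7.43 in the empty-labelled tumors. Its probe may not detect the plasmid transcript, so the groups are named by their labels as PD-L1-labelled and empty-labelled tumors, numbered by replicate. The epithelial gene Epcam ran from 3.37 to 10.75 in the PD-L1-labelled group, against 4.96 to 7.26 in the empty-labelled group. The 12 hepatocyte genes of a marker list averaged 5.54, 4.49 and 8.83 in PD-L1-labelled tumors 1 to 3, against 7.68, 11.83 and 9.99 in empty-labelled tumors 1 to 3. The groups overlapped for that average.

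Most chains outside the IL-1 and IL-17 groups belong to the cytokine receptor superfamily, which signals through Janus kinases and STAT factors. In the IL-1 and IL-18 group most chains, though not the decoy Il1r2, carry a different cytoplasmic domain and signal through Myd88 and IRAK kinases. Those of the IL-17 group use their own adaptor. In the liver, hepatocytes respond to IL-6 through Il6ra and the shared chain Il6st, and macrophages respond to IL-4 and IL-13 through Il4ra. In tumor tissue a lower value can mean fewer cells of a type or less RNA per cell, and these cannot be told apart.

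All values below are the deposited log2 values, and differences are PD-L1-labelled minus empty-labelled. A gene was tested when its mean over the 6 samples reached 4.66, which lies 2 SD above the average negative control probe of all samples pooled. Of the 30 chains 21 passed, 70% against 72.1% of all endogenous genes, and 16 of them stood over this pooled limit in all 6 samples. Computed per sample, the limit ran from 3.88 in empty-labelled tumor 3 to 5.44 in empty-labelled tumor 2, and was 5.15 in PD-L1-labelled tumor 2. A weak chain counted as over the pooled limit can thus lie under that of its own sample. Il7r did so at 4.73 in PD-L1-labelled tumor 2 and at 5.11 in empty-labelled tumor 2. The lowest mean that passed was 4.67, of Il17rb, and the highest that did not was 4.34, of Il22ra1. None of the 21 chains passed the test: in limma 0 of 541 genes (0%) were under 0.05 after adjustment, and the chains reached no lower than 0.251. At an unadjusted p under 0.05 there were 5 chains (23.8%), where the share over all tested genes was 17%. Of these 5 chains 1, Il4ra, stood higher in the PD-L1-labelled tumors, against 7.21% of all genes, and 4 stood lower, against 9.8%. The groups did not overlap for 6 chains (28.6%), where the share over all tested genes was 18.3%. Of these 2 stood higher in the PD-L1-labelled tumors, against 8.5% of all genes, and 4 lower, against 9.8%. Counting by sign alone, 8 chains stood higher, where 40.1% of all genes did, and 13 lower, where 59.9% did. The median difference was -0.23 over the chains and -0.12 over all tested genes. The number of 5 chains was 3 without PD-L1-labelled tumor 1, 2 without PD-L1-labelled tumor 2, 3 without PD-L1-labelled tumor 3 and 3 without empty-labelled tumor 3. Over all 541 tested genes the number was 92 with all samples, and 74, 38, 92 and 53 in these settings in the same order. The number of 6 chains was 10 (47.6%) without PD-L1-labelled tumor 1, where the share over all tested genes was 33.8%. One of the 5 and of the 6 chains, Il17rb, passed the pooled limit through the empty-labelled tumors and was under it in the PD-L1-labelled tumors. Over the genes that reached the limit in at least 1 sample of each group, a setting chosen after seeing the data, 4 of 20 chains (20%) had an unadjusted p under 0.05, against 16.6% of all such genes, and 5 (25%) did not overlap, against 17.9%.

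**Figure D1:**
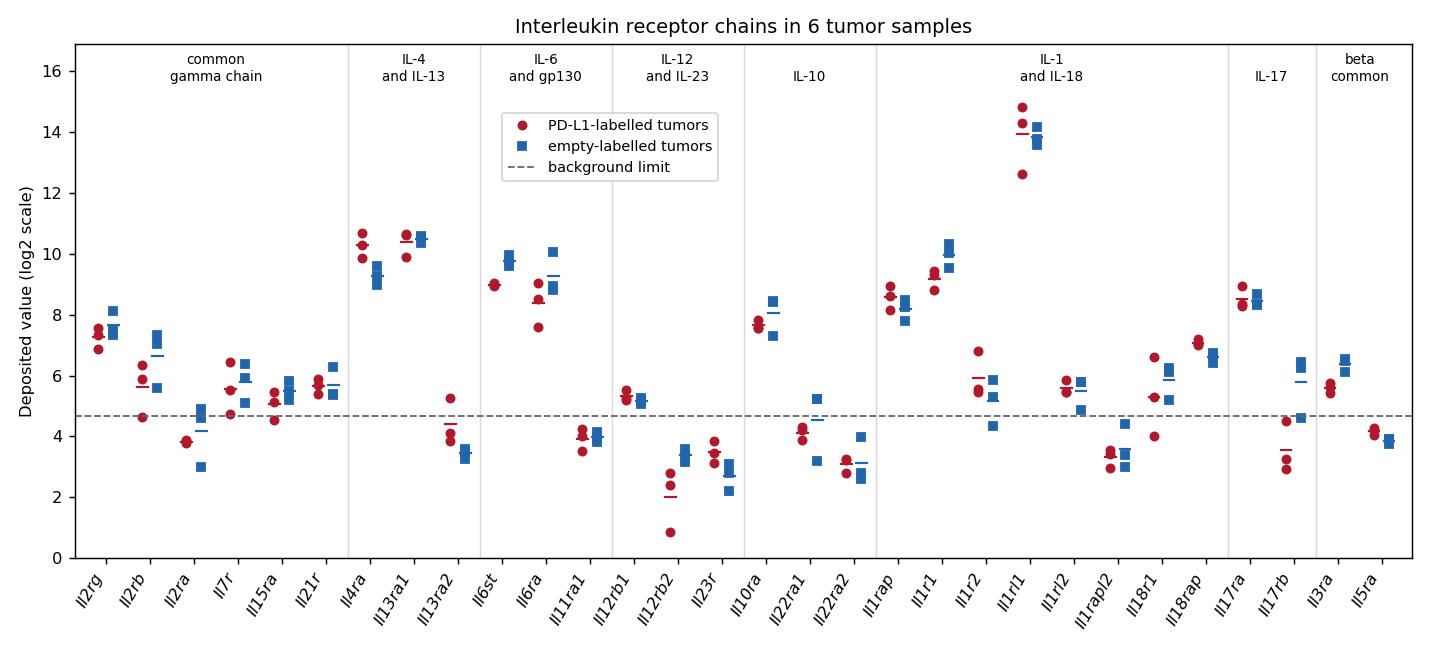
Deposited log2 values of the 30 interleukin receptor chains, grouped by receptor family. Circles are the 3 PD-L1-labelled tumors and squares the 3 empty-labelled tumors, short lines are group means, and the dashed line is the background limit of 4.66, which 9 chains did not reach in their mean.

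The chain that stood furthest above its level in the empty-labelled tumors was Il4ra, which binds IL-4 and serves in the receptors of both IL-4 and IL-13. The deposited values of Il4ra were 10.28, 10.69 and 9.88 in PD-L1-labelled tumors 1 to 3, against 9.26, 8.96 and 9.59 in empty-labelled tumors 1 to 3. Every PD-L1-labelled tumor lay above every empty-labelled tumor, with PD-L1-labelled tumor 3 and empty-labelled tumor 3 the closest to each other. The difference was 1.01 ± 0.30 (SE, n = 3 per group), 2.02-fold on the linear scale, with a 95% interval from 0.28 to 1.74 (limma adjusted p = 0.251). Leaving out single samples gave differences between 0.81 and 1.22. With the mean of the hepatocyte list as a covariate, a setting chosen after seeing the data, the difference was 0.58. In the same samples the macrophage list averaged 10.81, 11.62 and 10.80 in PD-L1-labelled tumors 1 to 3, against 9.85, 9.75 and 10.49 in empty-labelled tumors 1 to 3. Of its 8 tested genes 7 stood higher in the PD-L1-labelled tumors, and its summed linear level ran from 20150 to 36840 in the PD-L1-labelled tumors and from 12080 to 18520 in the empty-labelled tumors. None of its markers was at 0 counts in all samples. The part of macrophage content in the Il4ra difference was not tested.

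The partner of Il4ra in the IL-13 receptor did not separate the groups. Il13ra1, which pairs with Il4ra to form the IL-13 receptor, stood at 9.90, 10.67 and 10.61 in PD-L1-labelled tumors 1 to 3, against 10.59, 10.55 and 10.37 in empty-labelled tumors 1 to 3. The groups overlapped, and the difference was -0.11 with a 95% interval from -0.78 to 0.55. Il13ra1 minus Il4ra, the difference of the log2 values within 1 sample, was -0.38, -0.03 and 0.73 in PD-L1-labelled tumors 1 to 3, against 1.33, 1.59 and 0.78 in empty-labelled tumors 1 to 3. Such a within-sample difference is free of the scaling between samples, and its absolute size has no meaning because the probes differ. The groups did not overlap, and the mean difference of -1.12 between groups stayed between -1.44 and -0.88 when single samples were left out. Il13ra2, a decoy that binds IL-13, was under the limit. Its counts were 19, 20 and 46 in PD-L1-labelled tumors 1 to 3, against 20, 10 and 18 in empty-labelled tumors 1 to 3, and only PD-L1-labelled tumor 3 exceeded the limit, at 5.27.

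The shared chain Il6st, known as gp130, is the signalling chain of the receptors for IL-6, IL-11 and related cytokines. It stood at 8.95, 9.05 and 8.97 in PD-L1-labelled tumors 1 to 3, against 9.71, 9.59 and 9.97 in empty-labelled tumors 1 to 3. The PD-L1-labelled group was tightly clustered, with an SD of 0.048 against 0.19 in the empty-labelled group, and the groups did not overlap. The difference was -0.77 ± 0.22 (SE, n = 3 per group), 1.70-fold lower, with a 95% interval from -1.30 to -0.24 (limma adjusted p = 0.251). It stayed between -0.85 and -0.66 when single samples were left out, and was -0.82 with the hepatocyte covariate.

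Il6ra, the private IL-6 binding chain that hepatocytes carry, was lower on average and far more variable. Its values were 9.03, 8.53 and 7.61 in PD-L1-labelled tumors 1 to 3, against 8.83, 8.93 and 10.08 in empty-labelled tumors 1 to 3. The groups overlapped, since PD-L1-labelled tumor 1 lay above 2 of the 3 empty-labelled tumors, and the difference was -0.89 ± 0.50 (SE, n = 3 per group; 95% interval -2.08 to 0.30). That difference was -0.50 without PD-L1-labelled tumor 3, -0.49 without empty-labelled tumor 3 and -1.32 with the hepatocyte covariate. Within a sample Il6ra minus Il6st averaged -0.60 ± 0.72 in the PD-L1-labelled tumors and -0.48 ± 0.52 in the empty-labelled tumors (SD, n = 3 each). That within-sample difference therefore did not separate the groups, although Il6st itself did. Il11ra1, the private chain for IL-11, held 15 to 22 counts in the PD-L1-labelled tumors and 16 to 27 in the empty-labelled tumors, which is near the negative control probes, whose highest counts ran from 17 to 25.

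In the IL-1 group the main binding chain and its partner differed in opposite directions, and only the binding chain did so without overlap. Il1r1, which binds IL-1 and signals only together with the shared accessory chain Il1rap, stood at 8.80, 9.43 and 9.32 in PD-L1-labelled tumors 1 to 3, against 9.52, 10.04 and 10.32 in empty-labelled tumors 1 to 3. The groups did not overlap, with a gap of less than the spread inside either group, and the difference was -0.78 ± 0.31 (SE, n = 3 per group; 95% interval -1.52 to -0.04; limma adjusted p = 0.291). That difference lay between -0.9996 and -0.59 when single samples were left out, and was -0.53 with the hepatocyte covariate. Il1rap, which the receptors of IL-1, IL-33 and IL-36 share, stood at 8.17, 8.94 and 8.61 in PD-L1-labelled tumors 1 to 3, against 7.78, 8.26 and 8.48 in empty-labelled tumors 1 to 3. Its groups overlapped, and its difference of 0.40 ± 0.32 had the opposite sign (95% interval -0.38 to 1.17).

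Set against each other within each sample, these IL-1 receptor chains separated the groups widely. Il1r1 minus Il1rap was 0.64, 0.49 and 0.71 in PD-L1-labelled tumors 1 to 3, against 1.74, 1.79 and 1.85 in empty-labelled tumors 1 to 3. The means were 0.61 ± 0.11 in the PD-L1-labelled tumors and 1.79 ± 0.05 in the empty-labelled tumors (SD, n = 3 each), a difference of -1.18. Leaving out single samples moved it only between -1.23 and -1.12. The exact permutation p, two-sided, was 0.1, the smallest that 3 against 3 samples allow, so this permutation test cannot reach 0.05. Il1r1 minus Il1rap is 1 of 13 pairs compared below. On the same shared chain, Il1rl1 minus Il1rap and Il1rl2 minus Il1rap overlapped between the groups, with differences of -0.32 and -0.29.

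The other ligand-binding chains of the IL-1 group did not separate the groups. Il1rl1, the IL-33 receptor ST2, stood at 12.63, 14.31 and 14.84 in PD-L1-labelled tumors 1 to 3, against 14.17, 13.58 and 13.79 in empty-labelled tumors 1 to 3. PD-L1-labelled tumor 1 was the lowest and PD-L1-labelled tumor 3 the highest of the 6 samples, so that the group mean differed by 0.08 with a wide 95% interval from -1.31 to 1.48. Its probe gave 8474 to 35202 counts in the PD-L1-labelled tumors and 11056 to 30874 in the empty-labelled tumors, which was 54.2 to 84.0% of all counts of the 30 chains in a sample. Probe efficiencies are not known, so this share is no ranking of transcripts, and whether the probe reads the soluble form of ST2 as well was not given in the sources used here. Il1rl2, the IL-36 receptor, differed by 0.11 (95% interval -0.79 to 1.002).

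Il1r2, a decoy that binds IL-1 without signalling and that neutrophils and macrophages carry, stood at 5.44, 6.80 and 5.55 in PD-L1-labelled tumors 1 to 3, against 5.30, 4.33 and 5.86 in empty-labelled tumors 1 to 3. Its difference of 0.77 ± 0.56 (SE, n = 3 per group) was 0.33 without PD-L1-labelled tumor 2, 0.35 without empty-labelled tumor 2 and 0.015 with the hepatocyte covariate. Among markers of neutrophils, 4 on the panel, the summed linear level ran from 566.9 to 1566 in the PD-L1-labelled tumors and from 270.8 to 532.4 in the empty-labelled tumors. Of the 3 tested markers 1 stood higher and 2 lower, and their average was 6.59, 7.10 and 7.06 in PD-L1-labelled tumors 1 to 3, against 6.86, 5.85 and 6.68 in empty-labelled tumors 1 to 3. The part of neutrophil content in the Il1r2 values was not tested. Il1rapl2, a relative best known from the brain, had 9 to 14 counts in the PD-L1-labelled tumors and 13 to 20 in the empty-labelled tumors, no more than negative control probes.

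For IL-18 the accessory chain separated the groups and the binding chain did not. Il18rap, the accessory chain, stood at 6.99, 7.21 and 7.05 in PD-L1-labelled tumors 1 to 3, against 6.74, 6.40 and 6.67 in empty-labelled tumors 1 to 3. The groups did not overlap and were narrow, but the difference of 0.48 ± 0.27 (SE, n = 3 per group) had a 95% interval from -0.17 to 1.13 (limma adjusted p = 0.408). That difference lay between 0.38 and 0.55 when single samples were left out, and was 0.30 with the hepatocyte covariate. Il18r1, the chain that binds IL-18, stood at 6.61, 5.30 and 4.003 in PD-L1-labelled tumors 1 to 3, against 6.26, 5.20 and 6.12 in empty-labelled tumors 1 to 3. It spread over 130, 46 and 19 counts in PD-L1-labelled tumors 1 to 3, and its difference of -0.56 turned to 0.09 without PD-L1-labelled tumor 3. Il18r1 minus Il18rap overlapped between the groups, at -0.39, -1.92 and -3.04 in PD-L1-labelled tumors 1 to 3, against -0.48, -1.20 and -0.55 in empty-labelled tumors 1 to 3.

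**Figure D2:**
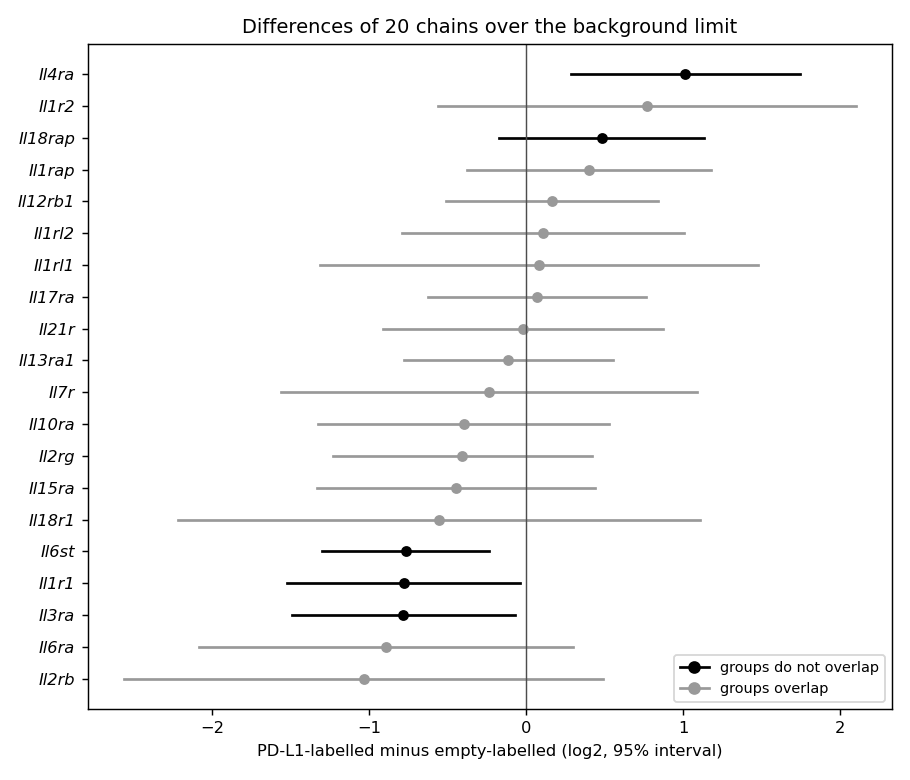
Difference of each of the 20 chains that passed the limit and reached it in both groups, PD-L1-labelled minus empty-labelled on the log2 scale, with the 95% interval of the limma fit. Black marks the 5 chains whose groups did not overlap, from Il4ra at 1.01 to Il3ra at -0.78; no chain passed the adjusted threshold.

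In the IL-17 group the private chain was under the pooled limit in the PD-L1-labelled tumors. Il17ra, the chain common to the receptors of IL-17A and IL-25, stood at 8.34, 8.94 and 8.27 in PD-L1-labelled tumors 1 to 3, against 8.35, 8.31 and 8.69 in empty-labelled tumors 1 to 3. The groups overlapped, and the difference was 0.07 with a 95% interval from -0.62 to 0.77. Il17rb, the private chain of the IL-25 receptor, stood at 2.93, 3.25 and 4.51 in PD-L1-labelled tumors 1 to 3, against 4.62, 6.45 and 6.25 in empty-labelled tumors 1 to 3. These values rest on 10, 11 and 27 counts in PD-L1-labelled tumors 1 to 3, against 41, 79 and 146 counts in empty-labelled tumors 1 to 3. The gene reached the pooled limit through the empty-labelled tumors, of which 2 stood above it, while no PD-L1-labelled tumor did. Against the limits computed per sample, PD-L1-labelled tumor 3 stood just above its own, 4.42, and empty-labelled tumor 1 above its own, 3.99.

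A gene that passes only through the group where it is high has to differ, so no difference or test is printed for Il17rb. It is still counted above among the 5 chains with an unadjusted p under 0.05 and the 6 without overlap. The empty-labelled tumors with the higher Il17rb values, tumors 2 and 3, also had the higher hepatocyte averages of that group, 11.83 and 9.99 against 7.68 in tumor 1. In the PD-L1-labelled tumors the highest Il17rb value and the highest hepatocyte average, 8.83, were both in tumor 3. Tumors 1 and 2 of that group went the other way, with hepatocyte averages of 5.54 and 4.49 and Il17rb values of 2.93 and 3.25. PD-L1-labelled tumor 3 had a higher hepatocyte average than empty-labelled tumor 1, 8.83 against 7.68, but a lower Il17rb value, 4.51 against 4.62. The summed linear level of the hepatocyte list ran from 721.4 to 11780 in the PD-L1-labelled tumors and from 6789 to 85170 in the empty-labelled tumors, and all 12 of its genes stood lower on average in the PD-L1-labelled tumors. The part of liver content in the Il17rb values was not tested.

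Il3ra binds IL-3 and signals through the chain Csf2rb that it shares with the receptors of IL-5 and GM-CSF. It stood at 5.42, 5.77 and 5.63 in PD-L1-labelled tumors 1 to 3, against 6.11, 6.56 and 6.49 in empty-labelled tumors 1 to 3. The groups did not overlap, and the difference was -0.78 ± 0.30 (SE, n = 3 per group; 95% interval -1.49 to -0.07; limma adjusted p = 0.291). That difference lay between -0.92 and -0.69 when single samples were left out, and was -0.62 with the hepatocyte covariate. Endothelial cells can carry Il3ra and Il1r1, and all 6 endothelial markers stood lower on average in the PD-L1-labelled tumors. Their average was 7.36, 7.59 and 7.28 in PD-L1-labelled tumors 1 to 3, against 8.19, 7.67 and 8.42 in empty-labelled tumors 1 to 3, and their summed linear level ran from 1048 to 1464 in the PD-L1-labelled tumors and from 1339 to 2446 in the empty-labelled tumors. The part of endothelial content was not tested. Csf2rb, which is no interleukin receptor by name, averaged 7.85 ± 0.07 in the PD-L1-labelled tumors and 7.85 ± 0.45 in the empty-labelled tumors (SD, n = 3 each). Il3ra minus Csf2rb was -2.40, -2.16 and -2.17 in PD-L1-labelled tumors 1 to 3, against -1.83, -0.81 and -1.75 in empty-labelled tumors 1 to 3, without overlap. Without empty-labelled tumor 2 that difference between the groups was -0.45, against -0.78 with all samples. Il5ra, the IL-5 binding chain of eosinophils, was under the limit with 19 to 24 counts in the PD-L1-labelled tumors and 12 to 29 in the empty-labelled tumors. Counts are not scaled between samples. The deposited Il5ra values ran from 4.03 to 4.28 in the PD-L1-labelled tumors and from 3.75 to 3.93 in the empty-labelled tumors, without overlap but near background.

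The 5 tested chains of the common gamma family were all lower on average in the PD-L1-labelled tumors as deposited, although Il21r turned higher with reference genes or medians set equal, and Il21r and Il7r with quantile normalization. For each of them the groups overlapped. Il2rg, the common gamma chain that the receptors of IL-2, IL-4, IL-7, IL-9, IL-15 and IL-21 share, stood at 7.57, 7.33 and 6.88 in PD-L1-labelled tumors 1 to 3, against 8.13, 7.54 and 7.33 in empty-labelled tumors 1 to 3. Its difference was -0.41 ± 0.34 (SE, n = 3 per group), but -0.22 without PD-L1-labelled tumor 3, -0.17 without empty-labelled tumor 1 and -0.90 with the hepatocyte covariate. Il2rb, which IL-2 and IL-15 receptors of T and natural killer cells share, stood at 6.34, 4.63 and 5.87 in PD-L1-labelled tumors 1 to 3, against 7.33, 5.58 and 7.04 in empty-labelled tumors 1 to 3. In both groups tumor 2 was the lowest, and the difference was -1.03 ± 0.64 (95% interval -2.56 to 0.49). It was -0.54 without PD-L1-labelled tumor 2 and -1.57 without empty-labelled tumor 2.

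The private chains of this family were not far above the limit. Il7r, the IL-7 receptor chain of lymphocytes, differed by -0.23 and had as few as 31 counts in a sample. Il15ra, which holds IL-15 on the surface of the presenting cell, differed by -0.45, and Il21r by -0.02. Il2ra, the chain that raises the affinity for IL-2, was under the limit, with 17 to 18 counts in the PD-L1-labelled tumors and 15 to 50 in the empty-labelled tumors. Of 12 T cell markers 9 were under the limit too, and the 3 tested ones averaged 4.53, 4.84 and 5.43 in PD-L1-labelled tumors 1 to 3, against 7.06, 5.39 and 5.89 in empty-labelled tumors 1 to 3. Their highest average, in empty-labelled tumor 1, was in the sample with the highest Il2rg and Il2rb, while their lowest average, in PD-L1-labelled tumor 1, was in the sample with the highest Il2rg and Il2rb of that group. The summed linear level of the 12 markers ran from 193.3 to 292.7 in the PD-L1-labelled tumors and from 269.8 to 733.7 in the empty-labelled tumors. The part of T cell content was not tested.

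Il4ra also pairs with Il2rg, in the IL-4 receptor of lymphocytes and macrophages. Il4ra minus Il2rg was 2.72, 3.36 and 2.996 in PD-L1-labelled tumors 1 to 3, against 1.13, 1.42 and 2.27 in empty-labelled tumors 1 to 3, and the groups did not overlap. Of 13 pairs of chains that averaged over the limit and reached it in both groups, 4 did not overlap between the groups. How often pairs of other genes would do so was not computed, so this count is description only. Besides that of Il4ra and Il2rg, the only one higher in the PD-L1-labelled tumors, these were Il13ra1 minus Il4ra, Il1r1 minus Il1rap and Il3ra minus Csf2rb, all lower. Pairs that hold the same chain are not independent of each other.

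**Figure D3:**
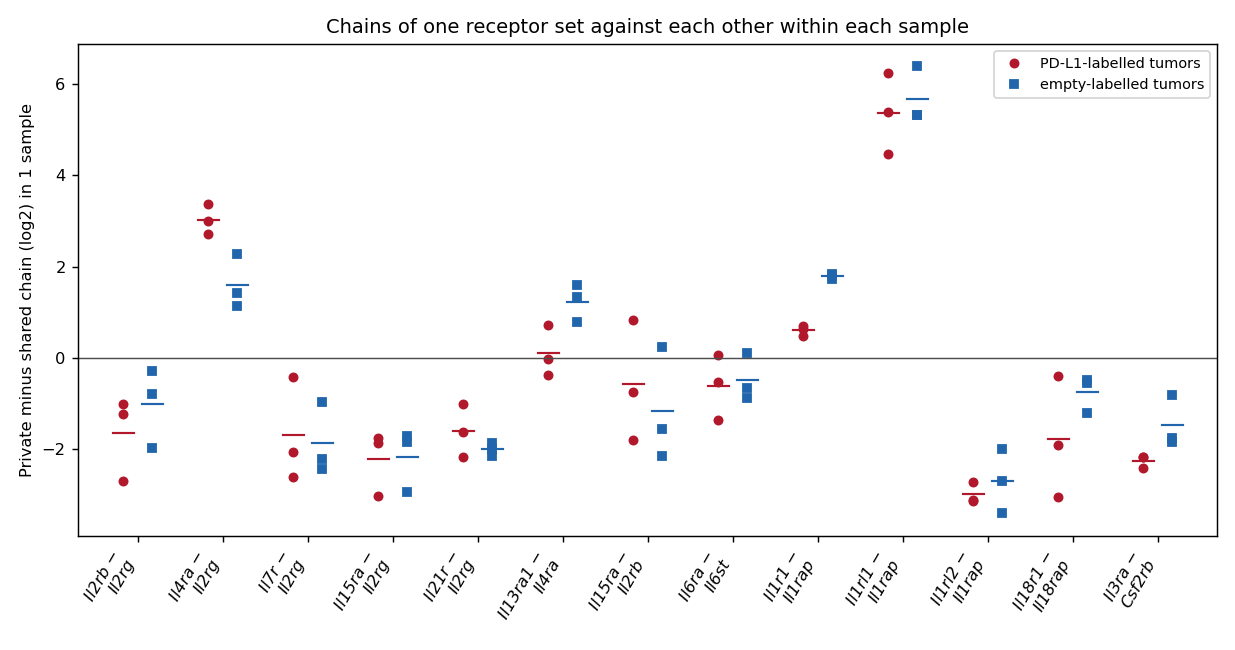
Log2 value of one chain minus that of its partner within each sample, for 13 pairs of chains that take part in the same receptor. Circles are PD-L1-labelled tumors, squares empty-labelled tumors and short lines group means; Il1r1 minus Il1rap lies at 0.49 to 0.71 in the PD-L1-labelled tumors and at 1.74 to 1.85 in the empty-labelled tumors.

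In the IL-12 and IL-10 families little was measurable. Il12rb1, shared by the receptors of IL-12 and IL-23, stood at 5.52, 5.26 and 5.21 in PD-L1-labelled tumors 1 to 3, against 5.07, 5.15 and 5.27 in empty-labelled tumors 1 to 3. It had the smallest range of the 21 chains, and its difference was 0.17 (95% interval -0.51 to 0.84). Its private partners were at background: Il12rb2 had 2 to 9 counts in the PD-L1-labelled tumors and 8 to 23 in the empty-labelled tumors. Il23r had 10 to 19 counts in the PD-L1-labelled tumors and 4 to 14 in the empty-labelled tumors. Il10ra, the IL-10 binding chain of leukocytes, stood at 7.57, 7.56 and 7.84 in PD-L1-labelled tumors 1 to 3, against 8.44, 7.29 and 8.43 in empty-labelled tumors 1 to 3. Its PD-L1-labelled tumors lay inside the range of the others, and the difference was -0.40 ± 0.39 (SE, n = 3 per group). It ran between -0.78, without empty-labelled tumor 2, and -0.20, without empty-labelled tumor 1.

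Il22ra1, the IL-22 receptor chain of epithelial cells and hepatocytes, averaged under the limit but reached 5.24 and 5.23 in empty-labelled tumors 2 and 3. It stood at 3.18 in empty-labelled tumor 1 and between 3.87 and 4.29 in the PD-L1-labelled tumors. Il22ra2, a soluble decoy for IL-22, had 9 to 11 counts in the PD-L1-labelled tumors and 10 to 14 in the empty-labelled tumors. Of the 9 chains under the limit 6 stayed under it in every sample, and no difference of theirs was tested. The deposited values of 4 of the 9, Il13ra2, Il12rb2, Il23r and Il5ra, did not overlap between the groups, though their unscaled counts did. With no background limit 10 of 30 chains (33.3%) did not overlap, against 18.8% of all genes. So near background this is description only.

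Interleukin ligand genes were mostly at background, as 22 of the 30 on the panel were under the limit. The list includes Il16, Il19 and Il34, which none of these chains bind. Of the 8 tested ligand genes 0 passed in limma and 0 had an unadjusted p under 0.05, with 5 higher and 3 lower in the PD-L1-labelled tumors and a median difference of 0.01. Leaving out Il16 and Il34, 3 stood higher and 3 lower, with a median difference of -0.08. Il15 was the only 1 of the 8 whose groups did not overlap, where 18.3% of all tested genes did not. It stood at 7.20, 7.51 and 7.57 in PD-L1-labelled tumors 1 to 3, against 6.83, 6.66 and 7.19 in empty-labelled tumors 1 to 3 (limma adjusted p = 0.393). PD-L1-labelled tumor 1 and empty-labelled tumor 3 were almost level, at 7.205 and 7.194. Il1b, the IL-1 made by myeloid cells, ran from 6.38 to 9.31 in the PD-L1-labelled tumors and from 7.38 to 9.45 in the empty-labelled tumors, so its groups overlapped widely. Ligands of Il4ra were not measurable, with Il4 and Il13 both under the limit.

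Of 17 tested genes that signal below these receptors 0 passed, 3 had an unadjusted p under 0.05, and 12 stood lower in the PD-L1-labelled tumors, with a median difference of -0.40. Over all tested genes 17% had such a p, and 59.9% stood lower. The groups did not overlap for 5, all lower in the PD-L1-labelled tumors, where 9.8% of all tested genes did so. Stat2, an interferon signal carrier, differed by -0.76 ± 0.24 (SE, n = 3 per group). Traf3, an adaptor of TNF and Toll-like receptors, differed by -1.23 ± 0.36. Stat6, which carries the signal of Il4ra, averaged 10.15 ± 0.15 in the PD-L1-labelled tumors and 10.21 ± 0.19 in the empty-labelled tumors (SD, n = 3 each), a difference of -0.06.

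The windows upstream of 3 chains whose groups did not overlap are shown so that the higher Il4ra and Il18rap can be read beside the lower Il6st. They are the 250 bases before the start in RefSeq's annotation of GRCm38.p6, on the plus strand, at chr7:125552021-125552270 for Il4ra, chr13:112463820-112464069 for Il6st and chr1:40515112-40515361 for Il18rap. Capitals mark a match to the STAT motifs TTCNNNGAA or TTCNNNNGAA, which read the same on both strands.
Il4ra: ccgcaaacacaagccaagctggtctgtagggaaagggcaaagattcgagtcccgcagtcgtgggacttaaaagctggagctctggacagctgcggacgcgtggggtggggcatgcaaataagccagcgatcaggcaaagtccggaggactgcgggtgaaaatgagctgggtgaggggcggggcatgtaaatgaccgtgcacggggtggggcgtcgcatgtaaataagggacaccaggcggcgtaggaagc
Il6st: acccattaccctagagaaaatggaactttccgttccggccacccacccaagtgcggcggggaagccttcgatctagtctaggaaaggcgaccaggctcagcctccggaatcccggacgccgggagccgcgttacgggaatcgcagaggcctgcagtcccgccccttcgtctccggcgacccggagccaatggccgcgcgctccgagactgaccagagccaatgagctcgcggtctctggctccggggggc
Il18rap: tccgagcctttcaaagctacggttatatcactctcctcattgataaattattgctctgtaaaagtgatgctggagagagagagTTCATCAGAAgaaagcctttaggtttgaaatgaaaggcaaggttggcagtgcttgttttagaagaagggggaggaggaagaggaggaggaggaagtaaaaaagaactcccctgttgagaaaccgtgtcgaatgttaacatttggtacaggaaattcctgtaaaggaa
Only the Il18rap window held a match, to TTCNNNNGAA, the wider spacing that STAT6 is known to prefer, from 167 to 158 bases before the start. That motif was held by 5.85% of all 32851 windows that RefSeq gives, and TTCNNNGAA by 7.02%. Among the 31 windows of the interleukin receptor chains, 3 held TTCNNNNGAA and 4 held TTCNNNGAA. Of the 30 chains 25 had a window in the table, some with more than 1 start, and TTCNNNGAA occurred in those of Il7r, Il12rb2, Il1r2 and Il18r1, and TTCNNNNGAA in those of Il18r1 and Il18rap. The Il4ra and Il6st windows are rich in CG dinucleotides, with 17 and 26, while the Il18rap window has 4 and the median window 6. A match is a description of letters, and no match says only that these letters are not in this window.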

How the data were processed

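Total RNA of 6 tumor samples was measured by NanoString, per the labels' protocols. The deposited values are log2 of counts that the authors scaled per sample, read from the values themselves: 2 to the power of each value is a whole number times a sample factor (0.519 to 1.11) plus 0.158, whole within 0.02 for 100% of values. The counting software, the basis of the factor and the genome build are not given in the sources used here. Recovered counts gave the depth. A second deposited table held identical values for 770 genes.

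Samples were grouped by title. Genes averaging at least 4.66 (25.3 linear) were tested, 541 of 750, with limma 3.58.1 in R 4.3.3 (lmFit, eBayes with trend, Benjamini-Hochberg over all 541, threshold 0.05), which was tested on simulated data. Single values had exact permutation tests. The chains and gene lists were chosen with earlier results of these data known. The rule for named genes printed every sample for shared chains, for chains whose groups did not overlap and for those with an unadjusted p under 0.05. Values of other chains chosen for their family are given as well. Of the 30 chains 29 matched RefSeq (GRCm38.p6) by accession, and Il4ra by symbol only. Marker lists not described with a chain gave these counts of tested genes higher and lower in the PD-L1-labelled tumors: B cell 0 and 1, natural killer cell 2 and 1, mast cell 0 and 1, eosinophil 1 and 0, fibroblast 2 and 2, and epithelial tumor cell 2 and 1. Alternatives covered scaling, trend, background limit, negative control subtraction, an added constant of 1, the second table, voom on recovered counts, leaving out each sample and a replicate block. A hepatocyte covariate, and a count over genes that reached the limit in both groups, were added after seeing the data. Figures used matplotlib 3.10.9 in python 3.11.15.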

Additional observations from a re-analysis of the deposited data

How the results depend on the processing

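No chain passed the adjusted threshold under any of the 19 alternatives. Over all genes 1 gene, no chain, passed with the reference genes set equal. Setting sample medians equal moved the median of all genes by over 0.1 (it was -0.12 as deposited and 0.04 after). In that setting 3 chains, and 84 of all 541 tested genes, had an unadjusted p under 0.05. With the hepatocyte covariate 0 chains did, and leaving out single samples gave 2 to 5. The count of all genes at that p, 92, was 27 with the covariate, 38 without PD-L1-labelled tumor 2 and 53 without empty-labelled tumor 3. Chains without overlap numbered 10 of 30 (33.3%) with no background limit, against 18.8% of all genes, and 6 to 10 when single samples were left out, which raised the share over all genes to between 23.1 and 36.2%. The median over chains stayed between -0.32 and -0.08. The cause of these shifts was not tested.

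Direction was kept by 14 of 21 chains under every alternative that tested them, and the other 7 had differences near 0 or a wide spread. The 14 include the 6 without overlap, but leaving out a sample cannot turn the sign of such a chain. Il17rb, among the 6, had passed the limit only through the empty-labelled tumors. Settings that changed only the trend, the background limit, the table or the block return the same difference, so they could turn no sign. Il21r turned to 0.011 with reference genes equal, 0.14 with medians equal, 0.30 with quantile normalization and 0.020 with negative controls subtracted. Quantile normalization gave -0.10 for Il1rl1 and 0.15 for Il7r, and equal medians 0.044 for Il13ra1. Voom gave -0.019 for Il17ra. The covariate gave -0.17 for Il17ra, -0.36 for Il1rl2 and 0.18 for Il7r. Leaving out single samples gave -0.18 to 0.28 for Il21r, -0.25 to 0.13 for Il13ra1, -0.38 to 0.73 for Il1rl1, -0.68 to 0.19 for Il7r, -0.14 to 0.19 for Il17ra, -0.21 to 0.26 for Il1rl2 and -1.21 to 0.092 for Il18r1. The deviations of same-numbered samples correlated at 0.27, -0.20 and -0.13, and those of unlike-numbered samples between -0.39 and 0.46. With so few samples per group these values cannot tell whether the numbers pair the samples. With a replicate block 5 chains, and 80 of all 541 tested genes, had an unadjusted p under 0.05 and 0 genes passed. Depth limits the chains under 30 counts, which are near the negative controls.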

Other observations

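Several chains are neighbours in RefSeq's gene table. Il1r2, Il1r1, Il1rl2, Il1rl1, Il18r1 and Il18rap follow each other with no other protein-coding gene between them. Their differences, PD-L1-labelled minus empty-labelled, had both signs: 0.77 for Il1r2, -0.78 for Il1r1, 0.11 for Il1rl2, 0.08 for Il1rl1, -0.56 for Il18r1 and 0.48 for Il18rap. Il1r1 and Il18rap, whose groups did not overlap, thus stood in opposite directions within 1 run of genes. Il4ra and Il21r are also direct neighbours, and differed by 1.01 and -0.02.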
